A study of Mus musculus with 33 samples.

Results

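The venetoclax vehicle and the ruxolitinib vehicle are the drug-free carriers given to the control mice of this study, and the comparison here is between the mice that received one and the mice that received the other. Members were chosen by the treatment label alone: 6 mice given ruxolitinib vehicle and 6 mice given venetoclax vehicle, which make 12 of the 33 mice measured. Each vehicle group held 2 mice on each of days 1, 3 and 7 post-treatment. All 12 were female C57BL/6 mice of 6-8 weeks and received vehicle by gavage on 2 days. The venetoclax vehicle was a mixture of 60% phosal R 50 PG, 30% polyethylene glycol (PEG) 400 and 10% ethanol, given 1 time a day. The ruxolitinib vehicle held 2% DMSO and 30% PEG 300 in water and was given 2 times a day. Phosal is a lipid carrier of phosphatidylcholine in propylene glycol, and DMSO, ethanol and PEG are solvents used to bring poorly soluble drugs into an oral dose. The 3 untreated mice of the series, which received neither drug nor carrier, are given beside the vehicle values. The labels do not describe how the replicate mice of a group relate to each other (cage, litter), so p-values measure the spread between these mice.

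Bone marrow (BM) is the site of blood formation, where neutrophils and their granule-rich precursors make up a large part of the cells, beside monocytes, B cell precursors, red cell precursors and a small number of stromal cells. Stromal cells hold the niche together with collagen and with CXCL12, a chemokine that retains blood stem cells and B cell precursors. RNA of the whole BM was hybridised with a NanoString immune gene panel, which counts colour-coded barcodes bound to each transcript without amplification. In bulk RNA of this kind, fewer cells of a type and less RNA per cell cannot be told apart. The question this comparison answers is how far the controls of both drug arms can be set beside each other.

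The 12 vehicle lanes held 43698 to 442402 endogenous counts, a 10.12-fold range. The endogenous total was 55011 to 442402 (median 153274) in the ruxolitinib vehicle lanes and 43698 to 329161 (median 156896) in the venetoclax vehicle lanes. Vehicle labels were exchanged within days in an exact permutation test, two-sided (216 arrangements, smallest possible p = 0.00926), which gave p = 0.722 for this total, p = 0.241 for the positive control total, p = 0.676 for the housekeeping level and p = 0.787 for the percent of probes above background. Adjusted over the 4 measures, each p was 0.787. S100a8, a calcium-binding protein of neutrophils, was the most abundant transcript in all 12 lanes, and the neutrophil genes Camp and Lcn2, the monocyte and neutrophil lysozyme gene Lyz2 and the B cell genes Cd37, Pax5 and Cd79b were all measured at over 50 normalised counts in every vehicle lane. Each labelled day was read in its own run of 11 lanes, with the venetoclax vehicle mice in lanes 1 and 2, the ruxolitinib vehicle mice in lanes 6 and 7 and 1 untreated mouse in lane 11. The untreated lanes of the day 1, 3 and 7 runs held 47977, 194748 and 37003 endogenous counts, and in the first only 38.5% of probes were above background, so its low values are less certain. The run of the mice labelled day 3 has day 2 in its file headers; the samples are grouped here by their labels, and the source of this difference was not tested. Carrier, number of doses a day and lane position therefore cannot be told apart, and neither can day and run.

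Lanes of day 7 lay apart from most of the others. Over 407 genes with a mean raw count of at least 20, the median absolute log2 difference between 2 mice of the same vehicle and day was 0.24 (6 pairs, range 0.18 to 0.42). Between 2 mice of different vehicles on the same day it was also 0.24 (12 pairs, range 0.21 to 0.46). Between 2 mice of the same vehicle on different days it was 0.53 (24 pairs, range 0.22 to 0.69). The 16 of these pairs that include a day 7 mouse had a median of 0.59 (range 0.32 to 0.69), and the 8 pairs of days 1 and 3 had one of 0.28 (range 0.22 to 0.36). The medians for pairs within and between vehicles on a day were alike. Pairs of a vehicle mouse and the untreated mouse of its run lay 0.20 to 0.55 apart (median 0.33, 12 pairs). These values describe the lanes and were not tested, since pairs share mice.

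**Figure D1:**
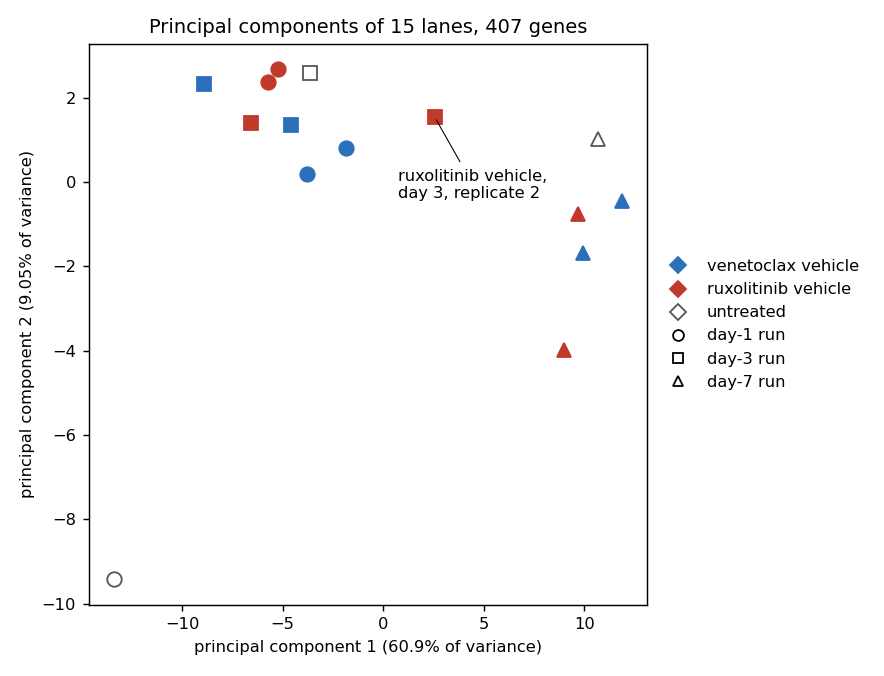
Principal components of log2(normalised count + 1) over 407 genes in 12 vehicle lanes and 3 untreated lanes; colour gives the treatment and shape the run. Component 1 (60.9% of variance) places the 4 vehicle lanes of day 7 and the untreated lane of that run between 9.0 and 11.85 and all other lanes at 2.55 or below. On day 1 the ruxolitinib vehicle lanes (-5.24 and -5.75) lie below the venetoclax vehicle lanes (-1.83 and -3.8), on day 3 they overlap them and lie higher on average (-6.55 and 2.55 against -8.93 and -4.61), and on day 7 they lie below (9.69 and 9.0 against 11.85 and 9.93).

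One lane stood apart from its day. In ruxolitinib vehicle replicate 2 of day 3, S100a8 took 47.3% of endogenous counts, against 61.3% to 65.1% in the other day 3 vehicle lanes and 32.5% to 37.6% in the day 7 vehicle lanes. Of the 407 genes, 27 were over 2-fold higher and 4 over 2-fold lower in this lane than the mean of the other 3, against 17, 2 and 4 genes over 2-fold away in either direction for venetoclax vehicle replicates 1 and 2 and ruxolitinib vehicle replicate 1. The genes above included Elane and Mpo, which encode granule enzymes made in neutrophil precursors, and C1qa and C1qb, which encode complement subunits made by macrophages. Elane was at 366 normalised counts in this lane, 104 in its replicate, 84.2 and 173 in the venetoclax vehicle mice, and 911 to 1215 in the 4 vehicle mice of day 7. C1qa was at 58.1 in this lane, 23.2 in its replicate, and 20.3 and 19.9 in the venetoclax vehicle mice. The day 3 calls and the day 3 fold changes of single genes below are therefore given with and without this lane. Without it, the same-day pairs of different vehicles lay 0.21 to 0.32 apart (10 pairs) and the same-day pairs of 1 vehicle 0.18 to 0.30 (5 pairs).

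Over the 3 days together no gene passed adjustment with all 12 mice. Of 609 genes tested with edgeR's quasi-likelihood test with day as block, 0% (0 genes) had an adjusted p under 0.05, and the smallest adjusted p was 0.967. At an unadjusted p under 0.05 there were 24 genes (3.94% of those tested), 12 higher and 12 lower in ruxolitinib vehicle mice. DESeq2 also called 0 genes (19 at an unadjusted p under 0.05), as did limma (26). The median log2 fold change of ruxolitinib vehicle against venetoclax vehicle, the direction used for every fold change here, was -0.003 over all genes, with 300 genes above 0 and 309 below. The 95% confidence interval of a gene's log2 fold change reached a median of 0.40 to either side. For 518 genes (85.1%) that interval lay wholly inside a 2-fold difference in either direction (a fold in one gene's own interval, with no adjustment for the number of genes).

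**Figure D2:**
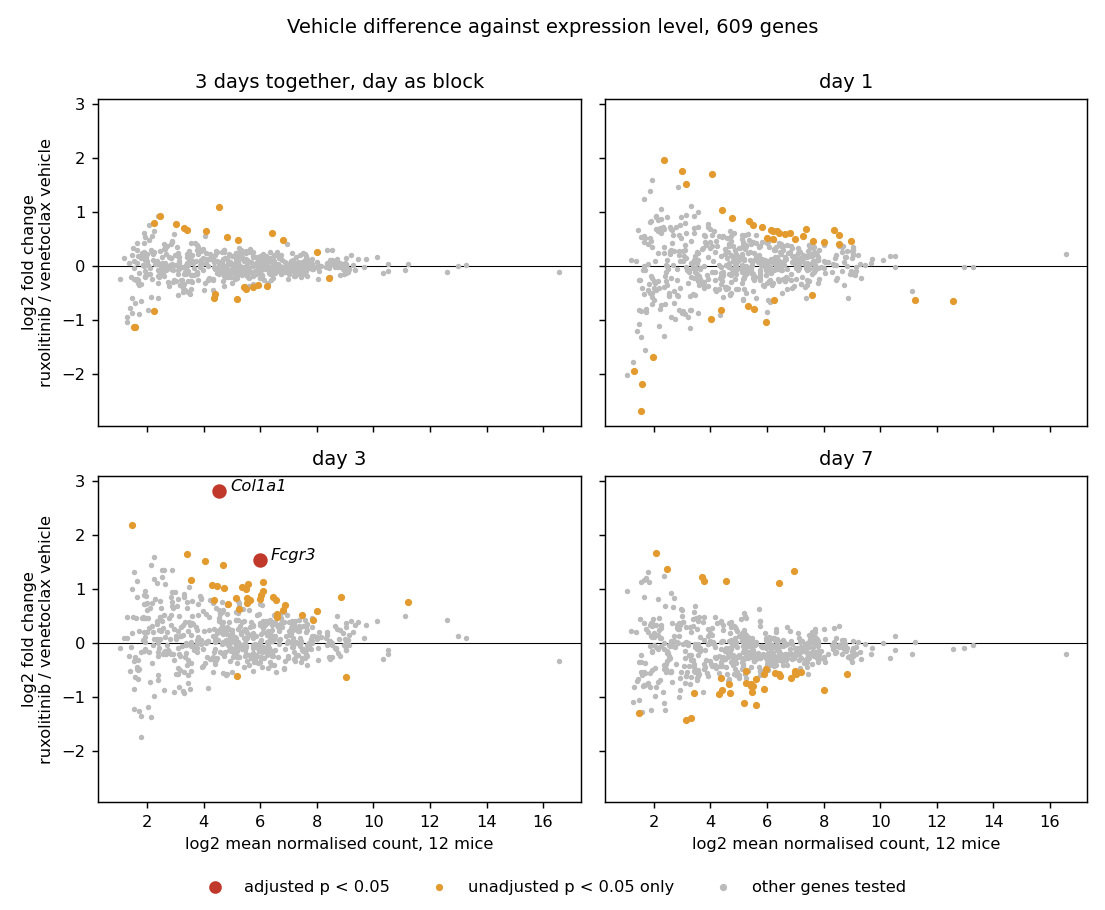
Log2 fold change of ruxolitinib vehicle over venetoclax vehicle against log2 mean normalised count for 609 genes, for the 3 days together and for each day. Red points passed an adjusted p of 0.05 (only Col1a1 and Fcgr3, on day 3), orange points only an unadjusted one, and the spread of the other points widens to the left, where counts are low.

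With all mice, none of the tested MHC and interferon genes was called. MHC-II molecules present peptides to CD4+ T cells; H2-Aa, H2-Ab1 and H2-Eb1 encode chains of the presenting molecules, Cd74 encodes the invariant chain that escorts them, and the H2-DM and H2-O genes encode the editors of peptide loading. Of the 12 genes of an MHC-II pathway list, 11 were on the panel and 10 were tested. None was called over the 3 days (0 higher, 0 lower), 9 lay above 0 and 1 below, and their median log2 fold change was 0.14 beside -0.003 for all genes. All 10 had an interval inside 2-fold. On single days the median was 0.17 beside 0.05 on day 1, 0.25 beside 0.08 on day 3 and -0.03 beside -0.15 on day 7. The day 3 median turned to -0.23 beside -0.008 without the lane that stood apart.
Cd74 was at 721 and 617 normalised counts on day 1, 633 and 665 on day 3 and 1049 and 1249 on day 7 in venetoclax vehicle mice. In ruxolitinib vehicle mice it was at 694 and 772 on day 1, 540 and 1098 on day 3 and 1328 and 803 on day 7. The ranges of the vehicles overlapped on all 3 days, the day 3 value of 1098 came from the lane that stood apart, and the untreated mice were at 298, 1018 and 1249. The log2 fold change of Cd74 was 0.13 (SE 0.15, 95% interval -0.19 to 0.45, edgeR adjusted p = 0.994).
H2-Eb1 had the largest log2 fold change of the list, 0.30 (SE 0.16, interval -0.04 to 0.64, edgeR adjusted p = 0.994; 0.20, without venetoclax vehicle replicate 1 of day 7, to 0.415 with a mouse left out). On day 1 it was at 428 and 343 in ruxolitinib vehicle mice and 266 and 217 in venetoclax vehicle mice, and the groups did not overlap. Here and below, a lack of overlap between 2 mice and 2 on 1 day describes the values and was not tested. The share of all genes without overlap on a single day is not given here. For H2-Eb1 the other days differed. On day 3 it was at 283 and 422 (the lane that stood apart) against 373 and 354, a log2 fold change of -0.03 and of -0.36 without that lane, and on day 7 at 405 and 258 against 209 and 391, so the groups overlapped on both. The 3 untreated mice were at 281, 547 and 255. H2-DMb2 had a log2 fold change of 0.15 (interval -0.21 to 0.51), H2-Aa of 0.21 (-0.17 to 0.59), H2-Ab1 of 0.09 (-0.18 to 0.37) and H2-Ob of -0.11 (-0.47 to 0.25).

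MHC-I presents peptides cut by the proteasome, carried in by the Tap transporter and shown to CD8+ T cells and NK cells. Of 14 tested genes of an MHC-I list (16 on the panel), none was called, 12 lay above 0 and 2 below, and the median log2 fold change was 0.12. Psmb10, which encodes a subunit of the immunoproteasome, was at 37.9, 21.5, 26.5, 39.2, 34.9 and 26.6 in the venetoclax vehicle mice, in the order of days 1, 3 and 7. It was at 40.9, 44.4, 36.4, 53.7, 50.8 and 36.0 in the ruxolitinib vehicle mice in the same order, a log2 fold change of 0.49 (SE 0.18, edgeR unadjusted p = 0.0122, adjusted p = 0.994). The groups did not overlap on days 1 and 7 and overlapped on day 3. On day 1 alone all 14 genes of the list lay above 0, none of them called, with a median of 0.38 beside 0.05 for all genes (0.31 beside -0.009 by TMM scaling). Of all 609 genes, 336 lay above 0 that day by the main scaling and 300 by TMM. Cell type markers lay off the all-gene median on that day too: 7 of 8 B cell precursor genes (median 0.29) and 8 of 10 mature B cell genes (median 0.27) lay above 0, and 11 of 15 monocyte and macrophage genes lay below (median -0.22). Their part in the MHC-I values was not tested. On day 3 the median was -0.03 beside 0.08 (-0.009 beside -0.008 without the lane that stood apart), and on day 7 it was -0.02 beside -0.15. The class I heavy chain gene H2-K1 had a log2 fold change of 0.29 (interval -0.01 to 0.60; 0.17 without ruxolitinib vehicle replicate 1 of day 7) and Tap1 of 0.04 (-0.20 to 0.29).

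Interferon-inducible genes encode antiviral effectors and sensors switched on by interferon receptors. Of the 29 tested members of that list, none was called over the 3 days, 12 lay above 0 and 17 below, and the median log2 fold change was -0.02, beside -0.003 over all genes. On day 7, 22 of the 29 lay below 0, none of them called, with a median of -0.27 beside -0.15 for all genes (-0.13 beside 0.008 by edgeR's TMM scaling). Of all 609 genes, 423 lay below 0 that day by the main scaling and 299 by TMM, so the sign counts are read only against that share. Of the 15 monocyte and macrophage genes, 13 lay below 0 that day (median -0.22), as did 12 of the 13 neutrophil genes (median -0.16). So did 7 of the 8 B cell precursor genes (median -0.15) and 9 of the 13 NK cell genes (median -0.255). Of the 5 megakaryocyte and platelet genes, 4 lay above 0 (median 0.26), as did 7 of the 13 stromal and endothelial genes (median 0.24). By TMM scaling these medians were -0.08, -0.003, 0.006, -0.09, 0.41 and 0.39 in that order. The part of these cell types in the interferon values was not tested. Ifit3, a member of the interferon-inducible list, had a log2 fold change of -0.38 (interval -0.72 to -0.03, edgeR unadjusted p = 0.0342, adjusted p = 0.994). It was at 74.4 and 81.9, 84.2 and 57.1, and 37.5 and 30.4 in venetoclax vehicle mice on days 1, 3 and 7. It was at 64.4 and 78.2, 51.3 and 44.9, and 26.4 and 13.9 in ruxolitinib vehicle mice, so the groups overlapped on day 1 and not on days 3 and 7. The value of 13.9 came from replicate 2 of day 7, a lane of only 55011 endogenous counts. Stat2, a transcription factor of the interferon response, had a log2 fold change of -0.42 (interval -0.79 to -0.06).
Rsad2, which encodes the antiviral enzyme viperin, had a log2 fold change of 0.05 over the 3 days (interval -0.35 to 0.44). Its venetoclax vehicle values were 121 and 137 on day 1, 82.6 and 49.1 on day 3, and 93.0 and 72.1 on day 7. Its ruxolitinib vehicle values were 110 and 109 on day 1, 87.7 and 127 on day 3, and 56.1 and 85.9 on day 7, below the other vehicle on day 1, above it on day 3 and overlapping on day 7. Its day 3 log2 fold change was 0.79, and 0.51 without the lane that stood apart. Isg15, a ubiquitin-like modifier, had a log2 fold change of 0.29 (interval -0.17 to 0.75), and Oas2, a sensor of double-stranded RNA, of -0.19 (-0.50 to 0.12). The type I interferon genes Ifna1 and Ifnb1, the type II interferon gene Ifng and the NK receptor gene Klrb1 held 1 to 7 raw counts in the vehicle lanes and were above background in 2, 1, 1 and 1 of the 12 lanes. A difference in these 4 genes was not detectable at this depth. The 15 genes at the centre of the drug comparisons in these mice, which include these 4, had 12 tested members, 0 called, and a median log2 fold change of 0.07.

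Genes of the ruxolitinib target pathway gave no call over the 3 days. JAK kinases pass cytokine signals to STAT factors, and SOCS genes close the loop. All 12 tested members of the JAK and STAT list had an interval inside 2-fold, with 4 above 0, 8 below 0 and a median log2 fold change of -0.003. On day 7 all 12 lay below 0, none of them called. Their median was -0.28 beside -0.15 for all genes, and -0.12 beside 0.008 by edgeR's TMM scaling. Of all 609 genes, 423 lay below 0 that day by the main scaling and 299 by TMM. That day 13 of 15 monocyte and macrophage genes (median -0.22) and 12 of 13 neutrophil genes (median -0.16) lay below 0 too. So did 7 of 8 B cell precursor genes (median -0.15) and 9 of 13 NK cell genes (median -0.255). Above 0 lay 4 of 5 megakaryocyte and platelet genes (median 0.26) and 7 of 13 stromal and endothelial genes (median 0.24). By TMM scaling these medians were -0.08, -0.003, 0.006, -0.09, 0.41 and 0.39 in that order. The part of these cell types in the JAK and STAT values was not tested. Jak1 had a log2 fold change of -0.003 (interval -0.26 to 0.25), with values of 198 and 237, 200 and 250, and 235 and 183 on days 1, 3 and 7 in ruxolitinib vehicle mice against 206 and 173, 223 and 212, and 264 and 258 in venetoclax vehicle mice. Of the 14 tested genes of the BCL-2 family and apoptosis list, which holds the venetoclax target pathway, none was called and the median was -0.04, with 11 intervals inside 2-fold. The log2 fold changes of the 14 ran from -0.48 (Fadd, an adaptor of death receptors, mean 9.57 normalised counts, above background in 9 of the 12 lanes) to 0.46 (Tnfsf10, a death receptor ligand, mean 7.40, above background in 7). Birc5, an inhibitor of apoptosis made in dividing cells and the most abundant of the 14, had a log2 fold change of -0.02 (interval -0.27 to 0.22).
The BCL-2 family genes below were chosen for their role after their values were seen. Bcl2, which encodes the protein that venetoclax binds, was at 37.1 and 47.7, 46.4 and 43.9, and 22.3 and 8.3 on days 1, 3 and 7 in ruxolitinib vehicle mice and at 35.01 and 29.1, 59.2 and 47.1, and 25.4 and 26.6 in venetoclax vehicle mice. It was above background in 11 of the 12 lanes, the lane at 8.3 being the exception. It lay above on day 1 and below on days 3 and 7, with a log2 fold change of -0.03 over the 3 days (interval -0.43 to 0.37, edgeR adjusted p = 0.994). The values over the 3 days were 0.07 for Bcl2l1, which encodes the related survival protein BCL-XL (interval -0.25 to 0.38), -0.23 for Bax (-0.58 to 0.12) and -0.21 for Bid (-0.60 to 0.19), both of which promote cell death. Bid had a day 1 log2 fold change of -0.79 (edgeR unadjusted p = 0.0155, adjusted p = 0.58).

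Marker lists of the cell types that BM holds gave no call over the 3 days. For B cell precursors 8 genes were tested (6 above 0, 2 below, median log2 fold change 0.11), for mature B cells 10 (8 and 2, median 0.03), for T cells 17 (7 and 10, median -0.06) and for NK cells 13 (9 and 4, median 0.07). For neutrophils there were 13 (4 above 0, 9 below, median -0.04), for monocytes and macrophages 15 (6 and 9, median -0.02), for dendritic cells 6 (all above 0, median 0.16) and for megakaryocytes and platelets 5 (3 and 2, median 0.03). For eosinophils, basophils and mast cells there were 6 (1 above 0, 5 below, median -0.10, the lowest of the 26 lists), for plasma cells 5 (4 and 1, median 0.02) and for stem and progenitor cells 7 (5 and 2, median 0.09). All of these medians stand beside -0.003 for all 609 genes. The scaling shifted all genes alike, to a median of 0.07 by the total endogenous count and of -0.06 by all 20 housekeeping probes, so the sign of a list median near 0 is read only against that value. S100a8 had a log2 fold change of -0.11 (interval -0.42 to 0.21), Cd3d of T cells of -0.04 (-0.43 to 0.36), Lyz2 of 0.01 (-0.22 to 0.25) and Tfrc, the transferrin receptor of red cell precursors, of -0.04 (-0.26 to 0.18). The summed level of the neutrophil list ran from 78995 to 142082 in ruxolitinib vehicle mice and from 89546 to 151181 in venetoclax vehicle mice. That of the monocyte and macrophage list ran from 9600 to 13658 and from 9207 to 13351. These ranges pool days whose levels differ, so their overlap does not compare the vehicles. On days 1, 3 and 7 the neutrophil level was 136662, 118324 and 81807.5 in ruxolitinib vehicle mice. In venetoclax vehicle mice it was 121005, 142331 and 92125.5. The monocyte and macrophage level was 10050, 10317 and 12710.5 against 10118, 9686 and 13221. These differences were not tested.

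**Figure D3:**
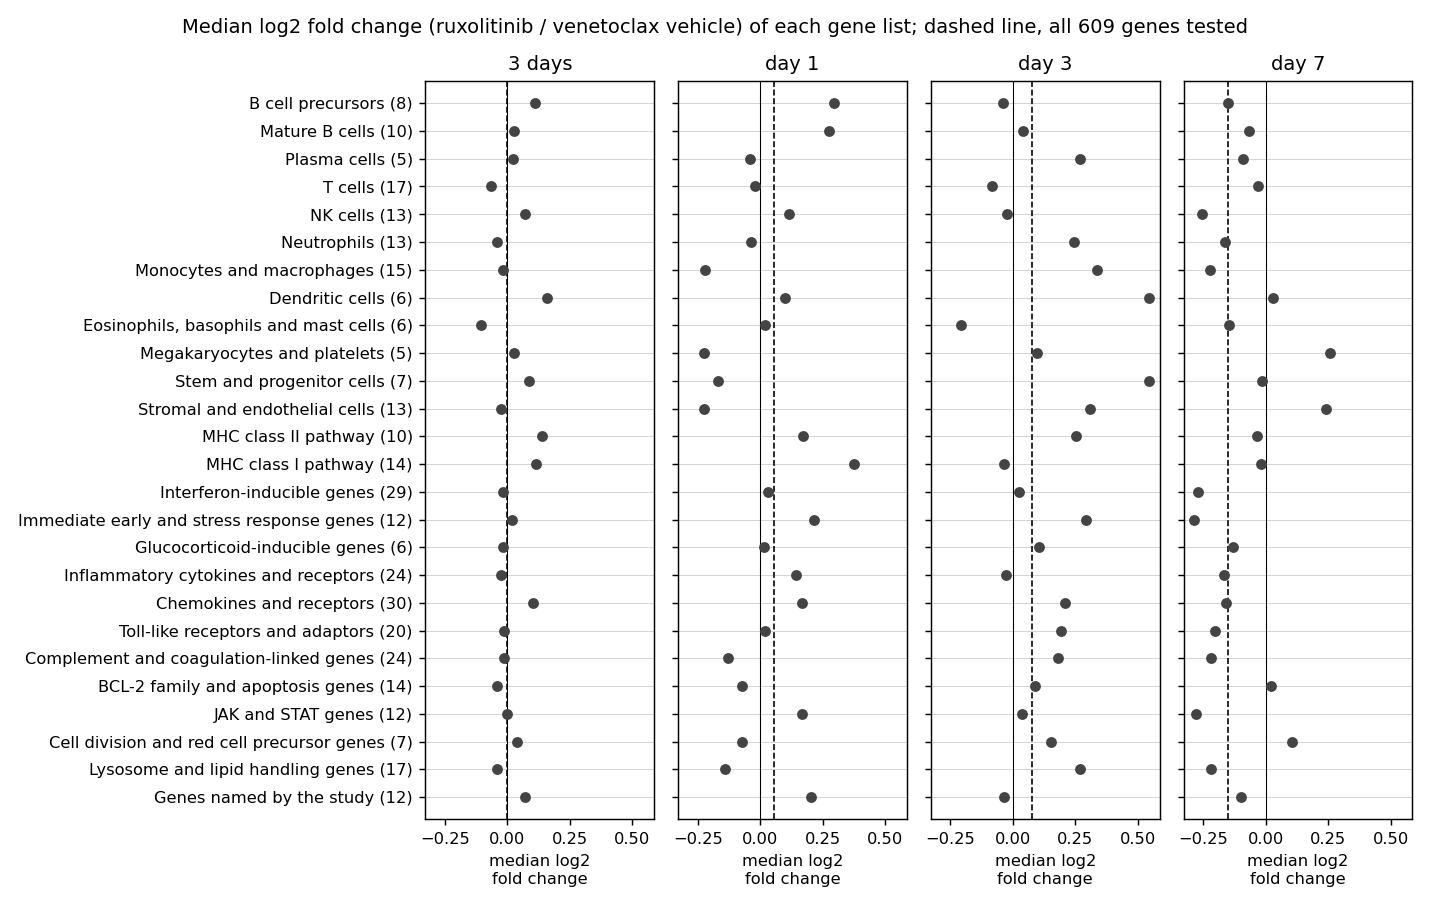
Median log2 fold change (ruxolitinib vehicle over venetoclax vehicle) of the tested members of 26 gene lists, with the number tested in brackets; the dashed line is the median of all 609 genes tested. Over the 3 days the medians lie between -0.10 and 0.16, and on single days they move to both sides of the dashed line.

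The genes of smallest unadjusted p over the 3 days are given as values, since none passed adjustment. Of the 25, with mean normalised counts of at least 20, 10 lay above 0 and 15 below. Il18r1, a subunit of the interleukin-18 receptor on lymphocytes and NK cells, was at 40.8 and 50.6, 45.2 and 37.8, and 48.6 and 37.97 on days 1, 3 and 7 in venetoclax vehicle mice. In ruxolitinib vehicle mice it was at 35.9 and 42.6, 28.1 and 25.2, and 21.9 and 19.4, and the untreated mice of the day 3 and day 7 runs were at 25.2 and 27.3. The groups overlapped on day 1 and not on days 3 and 7, and the log2 fold change was -0.61 (SE 0.18, interval -0.98 to -0.24, edgeR unadjusted p = 0.00256, adjusted p = 0.967).
Cxcl12, the niche chemokine, was at 40.8 and 61.4, 51.4 and 110, and 63.4 and 72.1 in venetoclax vehicle mice. In ruxolitinib vehicle mice it was at 68.1 and 71.7, 77.8 and 133, and 148 and 133, a log2 fold change of 0.62 (SE 0.19, interval 0.22 to 1.02, edgeR adjusted p = 0.967). Its groups did not overlap on days 1 and 7, and the untreated mice were at 51.9, 70.7 and 72.9. All 3 lay within the venetoclax vehicle range over the days, and the values of 70.7 and 72.9 lay within the ruxolitinib vehicle range too.
Nfkbia, the inhibitor that holds NF-kB in the cytoplasm, was at 20.4 and 19.4, 17.1 and 23.9, and 35.9 and 19.0 in venetoclax vehicle mice and at 24.8 and 33.8, 26.5 and 41.7, and 41.7 and 36.0 in ruxolitinib vehicle mice. Its log2 fold change was 0.53 (SE 0.19, interval 0.13 to 0.93, edgeR adjusted p = 0.994). The untreated mice were at 38.9, 21.2 and 59.2, from within the venetoclax vehicle range to above both groups.

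Nfkbia was also 1 of 4 genes (0.657% of the 609 tested) in which both ruxolitinib vehicle mice lay on the same side of both venetoclax vehicle mice on every day. Such a gene has an exact two-sided permutation p of 0.00926, the smallest that the 216 arrangements allow, and an adjusted p of 1.0 over the 609 genes, so the 4 are given as values only. Nfkbia lay above on each day. Ewsr1, Atg10 and Sigirr lay below on each day, with log2 fold changes of -0.22 (SE 0.10), -0.51 (SE 0.22) and -0.37 (SE 0.19). Ewsr1, an RNA-binding protein gene, was at 318 to 445 in the 6 venetoclax vehicle mice and 267 to 405 in the 6 ruxolitinib vehicle mice. Sigirr dampens signals of the interleukin-1 receptor family, and Atg10 takes part in autophagy.
Of the other genes among the 25, Mapkapk2, a kinase downstream of p38, had a log2 fold change of 0.48 (interval 0.14 to 0.82), Prkce, a protein kinase C gene, of -0.58 (-0.99 to -0.17) and Vcam1, an adhesion molecule of stroma and macrophages, of -0.37 (-0.67 to -0.06). The 10 genes of the 25 not described here ran from -0.45 (Zap70) to 0.27 (Psmb9).

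**Figure D4:**
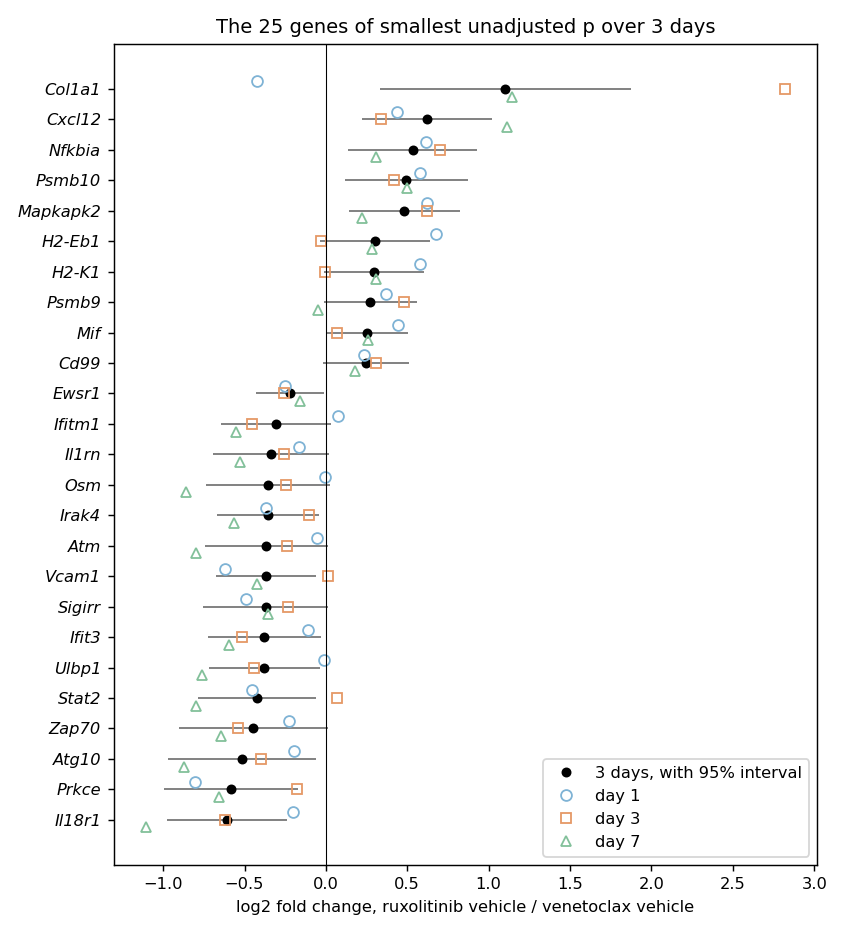
Log2 fold change (ruxolitinib vehicle over venetoclax vehicle) of 25 genes, those of smallest unadjusted p over the 3 days among genes with a mean of at least 20 normalised counts. Genes of lower mean were left out whatever their p. Black points and bars give the value over the 3 days with its 95% interval, open symbols the value of each day. None of the 25 passed an adjusted p of 0.05, and Col1a1 has its day 1 value below 0 and its day 3 value at 2.82.

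On single days, with 2 mice against 2 and the spread shared over the 6 groups, 2 of the 609 genes (0.328%) were called on day 3, and both were higher in ruxolitinib vehicle mice. On day 1 and on day 7 it was 0% (0 genes each). At an unadjusted p under 0.05 there were 39 genes on day 1 (26 higher, 13 lower), 37 on day 3 (35 and 2; 13 and 8 without the lane that stood apart) and 38 on day 7 (7 and 31). These splits moved with the scaling: by edgeR's TMM method they were 18 and 21, 20 and 8, and 8 and 12, and by the total endogenous count 7 and 16, 62 and 0, and 8 and 6. The median over all genes was 0.05, 0.08 and -0.15 on days 1, 3 and 7. It was -0.009, -0.02 and 0.008 by TMM, and -0.09, 0.25 and 0.008 by the total endogenous count. The sign of the median thus turned with the scaling on each day. The interval reached a median of 0.65, 0.66 and 0.64 to either side, and 320, 313 and 333 genes had theirs inside 2-fold.

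Col1a1, on chromosome 11 from 94936224 to 94953042 (GRCm38.p6), encodes the main chain of type I collagen, made in BM by bone-forming and other stromal cells. On day 3 it was at 39.7 and 82.2 normalised counts in ruxolitinib vehicle mice and 9.4 and 8.6 in venetoclax vehicle mice, with the untreated mouse of that run at 10.1. It was higher in ruxolitinib vehicle mice by a log2 fold change of 2.82 (SE 0.38, interval 2.03 to 3.61, a fold of 7.06, edgeR adjusted p = 0.000152). The raw counts behind these values were 24 and 75 against 6 and 13.
No call was made on the other days. On day 1 Col1a1 was at 24.8 and 19.9 in ruxolitinib vehicle mice and 26.3 and 31.2 in venetoclax vehicle mice, and its log2 fold change was -0.43 (SE 0.35, adjusted p = 0.835; -0.54 to -0.23 with a mouse left out). On day 7 it was at 14.4 and 13.9 against 6.9 and 3.8, a log2 fold change of 1.14 (SE 0.50, edgeR adjusted p = 0.678). The ruxolitinib vehicle lane at 13.9 held 5 raw counts, just above its background of 4.81. The venetoclax vehicle lane at 3.8 held 1 raw count, below its background of 2.18, so 3.8 is no measured level. With a mouse left out the day 7 value ran from 1.05 (without that lane, adjusted p = 0.776) to 1.88 (with that lane as the only venetoclax vehicle mouse, so set against no measured level). The untreated mice of the day 1 and day 7 runs held 1 and 3 raw counts of Col1a1, below the background of their lanes, so no level is given for them.
The difference between days was itself past the threshold (interaction adjusted p = 0.00594), as it was for 2 of the 609 genes (0.328%), Col1a1 and Fcgr3. That interaction call of Col1a1 was lost without the lane that stood apart (adjusted p = 0.0509), without venetoclax vehicle replicate 2 of day 3 (0.212), without replicate 2 of the ruxolitinib or venetoclax vehicle on day 1 (0.12 and 0.103), by limma (0.21) and with all 33 lanes (0.959). Without the lane that stood apart, the day 3 log2 fold change of Col1a1 was 2.15 (adjusted p = 0.0405), and without venetoclax vehicle replicate 2 of day 3 it was 2.74 (adjusted p = 0.0779). In a fit of all 33 lanes, drug-treated mice included, it was 2.81 with an adjusted p of 0.568.

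With all mice, Col1a1 was the only called gene of the stroma and vessel list. Of the 15 members of that list on the panel 13 were tested, 1 was called on day 3 (Col1a1, beside 0.328% of all genes), 9 lay above 0 and 4 below that day, and the median log2 fold change was 0.31 beside 0.08 for all genes. Without the lane that stood apart that median was -0.02 beside -0.008. Over all 609 genes, 359 lay above 0 on day 3 with all mice. Col3a1, a fibrillar collagen usually made by the same cells, had a mean of 2.09 normalised counts, and Pdgfrb, a receptor of perivascular stroma, of 2.73. Both were too low to test. Fn1, fibronectin, had a day 3 log2 fold change of 0.59 (156 and 306 against 140 and 169), where 306 came from the lane that stood apart. It was -0.01 without that lane and 0.96 (adjusted p = 0.00464) with that lane as the only ruxolitinib vehicle mouse. Cxcl12 had a day 3 log2 fold change of 0.34 (-0.16 without the lane), Vcam1 of 0.01 (0.06) and Pecam1, an endothelial adhesion gene, of -0.07 (-0.20).

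Fcgr3, on chromosome 1 from 171051169 to 171065915 (GRCm38.p6), encodes the activating low-affinity receptor for IgG on macrophages, neutrophils and NK cells. It was at 44.7 and 51.5 in ruxolitinib vehicle mice and 14.0 and 17.9 in venetoclax vehicle mice on day 3, with the untreated mouse at 26.3. The log2 fold change was 1.54 (SE 0.30, interval 0.91 to 2.17, a fold of 2.91, edgeR adjusted p = 0.0145). Both ruxolitinib vehicle mice lay above both venetoclax vehicle mice and the untreated mouse, and the raw counts were 27 and 47 against 9 and 27.
On day 1 and day 7 the order was the opposite. Fcgr3 was at 25.997 and 18.5 against 42.3 and 44.2 on day 1 (log2 fold change -1.03, SE 0.28, adjusted p = 0.551) and at 111 and 94.2 against 151 and 140 on day 7 (-0.49, SE 0.22, adjusted p = 0.706), with the untreated mouse of the day 7 run at 118. The untreated mouse of the day 1 run held 4 raw counts of Fcgr3, below its lane's background of 7.47, so no level is given for it. Only the day 3 difference passed the threshold, and the difference between days passed it as well (interaction adjusted p = 0.00448). The interaction call of Fcgr3 was lost without the lane that stood apart (adjusted p = 0.0509), without venetoclax vehicle replicate 2 of day 3 (0.0879), by limma (0.0529) and with all 33 lanes (0.959). Over the 3 days together the log2 fold change of Fcgr3 was -0.12 (SE 0.26, adjusted p = 0.994).
The day 3 call of Fcgr3 was lost under more settings than that of Col1a1. Without the lane that stood apart, the log2 fold change of Fcgr3 was 1.42 with an adjusted p of 0.341, without venetoclax vehicle replicate 1 or 2 it was 1.43 and 1.78 with adjusted p-values of 0.191 and 0.25, and by DESeq2 it was 1.46 with an adjusted p of 0.121. The other IgG receptor genes on the panel had smaller day 3 log2 fold changes: 0.30 for the inhibitory receptor gene Fcgr2b, 0.13 for Fcgr4 and 0.12 for the high-affinity receptor gene Fcgr1. Fcer1g, which encodes the signalling chain that FcγRIII needs at the cell surface, had 0.002. Without the lane that stood apart these 4 values were -0.06, 0.46, 0.42 and -0.16. The difference between Fcgr3 and these genes was not tested.

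**Figure D5:**
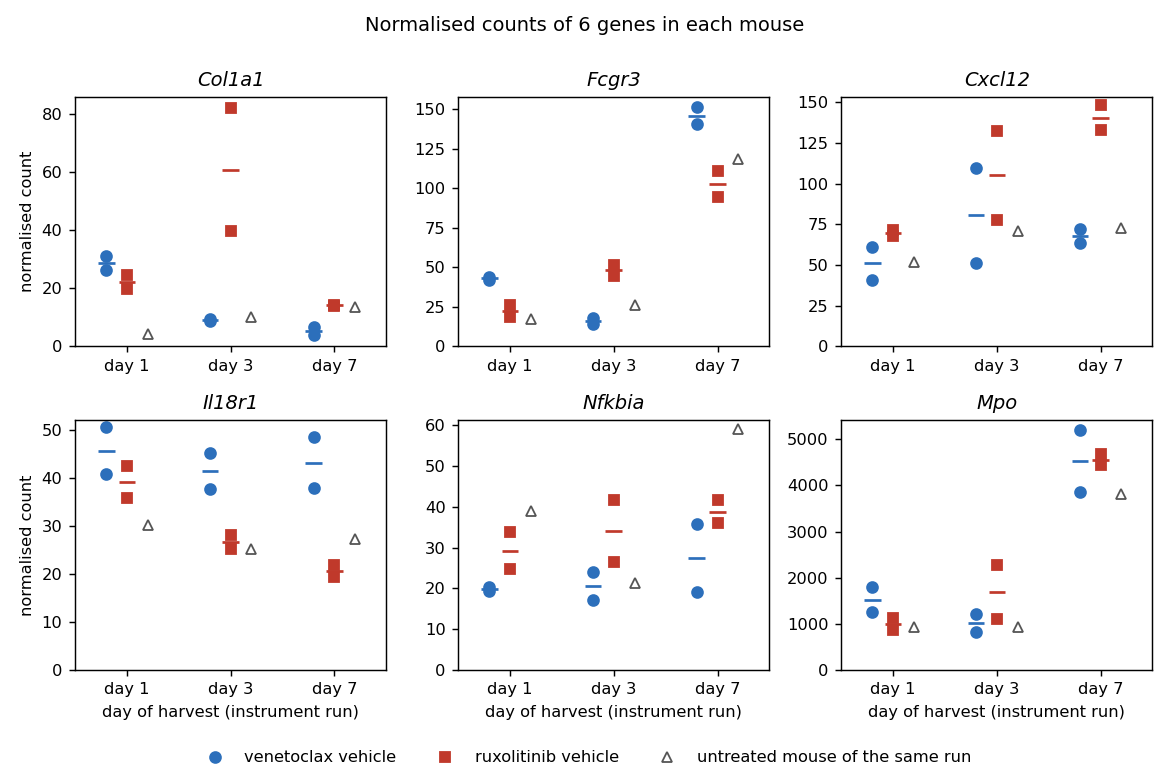
Normalised counts of 6 genes in each mouse by day, with venetoclax vehicle in blue, ruxolitinib vehicle in red, the untreated mouse of the same run as a triangle, and short lines at the means of 2 mice. Col1a1 and Fcgr3 have both ruxolitinib vehicle mice above both venetoclax vehicle mice on day 3, and Fcgr3 has them below on days 1 and 7.

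The count of calls on day 3 turned on which ruxolitinib vehicle mouse was kept. Without ruxolitinib vehicle replicate 1, which leaves that lane as the only ruxolitinib vehicle mouse of day 3, 51 genes were called (41 higher, 10 lower), with the spread of the lone mouse taken from the other groups. Without that lane, 1 gene was called (0.164%). Among the 51 were Mpo, Elane, Cd68, C1qa and Lbp above and S100a8 and Prg2 below. The 51 genes are 8.37% of those tested. By cell type, 6 of the 13 neutrophil genes (46.2%; 4 higher, 2 lower), 4 of the 15 monocyte and macrophage genes (26.7%), 2 of the 8 B cell precursor genes and 2 of the 13 stroma and vessel genes (Col1a1 and Fn1) were called. So was 1 gene each of the mature B cell (10 tested), T cell (17), stem and progenitor (7) and eosinophil, basophil and mast cell (6) lists, and none of the plasma cell, NK cell, dendritic cell and megakaryocyte lists. By pathway, 3 of the 10 MHC-II genes (Cd74 at a log2 fold change of 0.76, adjusted p = 0.0307, H2-Aa and H2-DMb2), 1 of the 14 MHC-I genes (H2-D1), 1 of the 29 interferon-inducible genes (Rsad2 at 1.04, adjusted p = 0.0183) and 1 of the 12 JAK and STAT genes (Jak2) were among them, all higher. These are shares of 30.0%, 7.14%, 3.45% and 8.33%, and the part of the cell type markers in them was not tested. The lysosome and lipid handling list had 4 of 17 called (23.5%), the 15 genes central to the drug comparisons 4 of the 12 tested (Cd74, H2-Aa, H2-DMb2 and Rsad2), and the other 8 pathway lists from none to 1 of 7 (14.3%). Without that lane, the day 3 log2 fold change was -0.27 for Cd74, 0.13 for Mpo, -0.38 for Elane and 0.21 for C1qa, none of them called. Mpo, myeloperoxidase, was at 1112 and 2282 in ruxolitinib vehicle mice and 814 and 1202 in venetoclax vehicle mice on day 3, against 3850 to 5201 in the 4 vehicle mice of day 7. S100a8 was at 129215 and 76522 against 139409 and 119575 on day 3, and at 49936 to 62342 on day 7. In both genes the lane lay between its own day and day 7. The part of that lane's makeup in the day 3 calls was not tested. Prg2, a granule protein of eosinophils, was at 579 and 312 against 828 and 556.
On day 1 Mpo and Lcn2 lay the other way, without passing adjustment. The neutrophil list as a whole was split that day. Of its 13 tested genes 5 lay above 0 and 8 below, with a median of -0.04 beside 0.05 for all genes. Of all 609 genes, 336 lay above 0 that day. Mpo was at 1129 and 859 against 1787 and 1261 (log2 fold change -0.62, adjusted p = 0.657) and Lcn2, a siderophore-binding granule protein, at 2774 and 2713 against 4455 and 4121 (-0.64, adjusted p = 0.58). Across the 407 genes, the log2 fold changes of day 1 and day 3 had a Pearson correlation of -0.39, and of -0.08 without the lane that stood apart. Days 1 and 7 had 0.09 and days 3 and 7 had 0.08. The days share no mice, and genes are not independent replicates, so these are given as descriptions. Of all 609 genes, 112 had the same sign on the 3 days, 55 above 0 and 57 below. That count holds for the main scaling with all mice, and the sign of each day's median turned with the scaling. It was not set beside a count for no difference, so it is a description only.

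On day 7 the smallest adjusted p (0.182) was shared by genes that include Il18r1, Il1b and Fos, and none passed adjustment. Il1b, the inflammatory cytokine interleukin-1 beta, was at 29.7 and 24.9 in ruxolitinib vehicle mice and 59.2 and 75.9 in venetoclax vehicle mice on day 7, with the untreated mouse at 36.5 (log2 fold change -1.15, SE 0.29, edgeR adjusted p = 0.182). Fos, an immediate early transcription factor, was at 177 and 114 against 287 and 270, with the untreated mouse at 223 (-0.87, SE 0.22, adjusted p = 0.182). Both genes lay the other way on day 1: Il1b was at 45.8 and 50.9 against 33.5 and 38.8, and Fos at 328 and 359 against 287 and 236. Jun, the partner of Fos, had day 7 values of 31.4 and 27.7 against 58.6 and 57.0 (-0.93, adjusted p = 0.4045) and day 3 values of 19.9 and 20.8 against 6.2 and 8.0 (adjusted p = 0.531). It was above background in 11 of the 12 lanes, and the lane at 6.2 was not, so no day 3 fold is given. The 12 tested immediate early and stress response genes had a median log2 fold change of -0.29 on day 7 beside -0.15 for all genes, and of 0.29 on day 3 beside 0.08 (0.004 beside -0.008 without that lane). None of the 12 was called on any day. Replicate 2 of either vehicle on day 7 held only 43698 and 55011 endogenous counts, the lowest depths of the 12 lanes.
Ppbp, a platelet chemokine, had a day 7 log2 fold change of 1.34 (SE 0.47, adjusted p = 0.608). It was at 161 and 127 in ruxolitinib vehicle mice and 32.7 and 133 in venetoclax vehicle mice, so the groups overlapped and 1 venetoclax vehicle lane set the difference.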

How the data were processed

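The authors deposited raw barcode counts per probe and lane (750 endogenous, 20 housekeeping, 8 negative and 6 positive control probes), before the normalisation their methods name. Background was the mean plus 2 SD of a lane's negative probes. Each lane was divided by the geometric mean of 11 housekeeping probes, those above background in all 33 lanes, and multiplied by the mean of that value over lanes to give normalised counts. The 609 genes above background in 2 or more of the 12 vehicle lanes were tested with edgeR 4.0.16 (quasi-likelihood, R 4.3.3): day as block over 3 days (8 residual degrees of freedom), and 6 group means (6 degrees of freedom) for single days and the interaction. P-values were adjusted by Benjamini-Hochberg over the 609 genes, with a threshold of 0.05. The common dispersion of 0.026 is a coefficient of variation of 16.1% between mice. The fit was tested on simulated data. Lane measures used an exact permutation test (Python 3.11.15, scipy 1.17.1). Symbols were matched to RefSeq GRCm38.p6 (734 directly, 8 by synonym, 8 unmatched). Alternatives were other scalings, DESeq2 1.42.0, limma 3.58.1, other filters, all 33 lanes, other blocks, and days or mice left out. The genes named include the 25 of smallest p over the 3 days among genes with a mean of at least 20 normalised counts. They also include those called on a day or in the interaction and 15 genes central to the drug comparisons. The 4 highest members of each of 26 gene lists were used where the text describes a list. Elane, C1qa, C1qb, Prg2, Il1b, Jun, Col3a1, Pdgfrb, Fadd, Tnfsf10, Bcl2, Bcl2l1, Bax, Bid, the other IgG receptor genes and the genes called with 1 day 3 mouse left out were added after their values were seen. The members and lists were chosen with earlier results of these data known. Some members of the lists are not reported here by name.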

Additional observations from a re-analysis of the deposited data

Results flagged for a closer look

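For 2 genes the difference between ruxolitinib vehicle and venetoclax vehicle was not the same on the 3 days, by the interaction term of vehicle and day in edgeR's quasi-likelihood fit. For Fcgr3 the interaction adjusted p was 0.00448, with log2 fold changes of -1.03, 1.54 and -0.49 on days 1, 3 and 7. Without ruxolitinib vehicle replicate 2 of day 3, the lane that stood apart, its day 3 value was 1.42. For Col1a1 the interaction adjusted p was 0.00594, with log2 fold changes of -0.43 on day 1 and 2.82 on day 3 (2.15 without that lane). No day 7 fold is repeated here, since 1 venetoclax vehicle lane of day 7 held 1 raw count, below its background. Each value compares 2 mice with 2, and run and day are the same split of the lanes, so they cannot be told apart. Both calls were lost by limma, with all 33 lanes, and without either replicate 2 of day 3 (adjusted p = 0.0509 for both genes without that of the ruxolitinib vehicle).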

How the results depend on the processing

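Over the 3 days, 0 genes were called under the main setting and under every alternative except leaving out day 1, which gave 1 gene (Col1a1, log2 fold change 2.19, adjusted p = 0.0107). With the replicate block (replicate number within day) 0 genes were called, with 30 at an unadjusted p under 0.05. Replicate numbers were not taken as pairs, since the correlations of their deviations were -0.012, 0.279 and 0.235 on days 1, 3 and 7. The 25 genes of smallest p, with means of at least 20 normalised counts, kept their direction in all 649 values under the alternatives. Of these values 28 (15 genes) moved by over 1.5 times, 22 of them with a day left out and 5 with a mouse left out. Without day 3, Col1a1 fell from 1.10 to 0.10 (unadjusted p = 0.741), and with a mouse left out it ran from 0.59 to 1.51. On day 3, 2 genes became 1 by DESeq2, 0 in the fit of all 33 lanes and 0 to 51 with a mouse left out: 0 without venetoclax vehicle replicate 2 and 51 without ruxolitinib vehicle replicate 1. The 2 interaction calls became 0 by limma, 0 with all 33 lanes and 0 to 31 with a mouse left out: 0 without venetoclax vehicle replicate 2 or ruxolitinib vehicle replicate 2 of day 3, 1 without replicate 2 of either vehicle on day 1, and 31 without ruxolitinib vehicle replicate 1 of day 3. Days 1 and 7 kept 0 calls under the alternatives run for single days (scalings, DESeq2, limma, filters, all 33 lanes and mice left out); other blocks, a depth minimum and days left out were run for the 3 days together. The cause was not tested. With a mouse left out, the log2 difference in endogenous total ran from -0.301 to 0.67 (-0.062 and -0.275 were also below 0), in housekeeping level from -0.232 to 0.717 (-0.215 also below 0), in positive controls from 0.1 to 0.253, and the difference in percent of probes above background from -4.089 to 2.533 (0.2 and 1.489 also above 0). Depth limits low genes, and 2 mice a vehicle and day leave a median half-width of about 0.65 (log2).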
